A study of Mus musculus with 9 samples.

Results

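The genes described here, Lin28a, Lin28b, Igf2bp1, Igf2bp3, Hmga2 and Arid3a, belong to a set tied to the fetal state of blood progenitors. The set was chosen by name and held 7 genes, and 6 of them had a probe set under their symbol in the platform annotation, among 20405 named genes on the array. The other gene was not analysed here. The study hybridised 9 Affymetrix arrays with RNA of sorted cells of the aorta-gonad-mesonephros region (AGM) of C57Bl6 mouse embryos at E11.5, the stage and site at which blood stem and progenitor cells leave the endothelium of the aorta. Cells positive for CD144 (VE-cadherin) and negative for CD45 are called EC (endothelial cells), cells positive for both are called HSPC (blood stem and progenitor cells) and cells positive for CD45 alone are called HC (hematopoietic cells), with 3 arrays in each group. No treatment or mutation is labelled for any group, so that the sort gate is the labelled difference between them. Whether replicates stem from different embryos is not stated, so p-values measure a spread between samples that may be technical.

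Lin28a and Lin28b are RNA-binding proteins that block the maturation of the let-7 microRNAs, partly by recruiting enzymes that tail the let-7 precursor with uridines and so mark it for decay. Igf2bp1, Igf2bp3 and Hmga2 are classical targets of let-7, Igf2bp proteins bind and stabilise messenger RNAs in turn, Hmga2 is a chromatin protein with AT-hooks, and Arid3a is a DNA-binding protein of the ARID family. In mice, Lin28b, Igf2bp3 and Hmga2 are known to favour fetal features of blood stem and progenitor cells when they are present, such as high self-renewal and a fetal mix of lymphoid progeny. Arid3a is known as a let-7 target through which Lin28b acts in fetal B cell progenitors.

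The let-7 family is shown first because the known roles given above tie these genes to it. Target sites of let-7 in their transcripts were not searched. RefSeq (GRCm38.p6) held the 5p mature sequence for 10 of 11 measured genes of the let-7 and miR-98 family, and all 10 carried the seed GAGGUAG at bases 2 to 8. The sequences printed belong to the 3 genes whose level lay above background in at least 1 population, with the seed in capitals and the strand read 5′ to 3′.
mmu-let-7b-5p: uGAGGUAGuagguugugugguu
mmu-let-7c-5p: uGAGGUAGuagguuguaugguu
mmu-let-7i-5p: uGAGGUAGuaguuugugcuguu

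The marker genes of the sort followed the gates. Summed over 10 endothelial markers, the level (log2 of the sum) ran from 13.84 to 14.04 on EC arrays, from 11.88 to 13.14 on HSPC arrays and from 9.05 to 9.66 on HC arrays. Summed over 10 leukocyte markers it ran from 10.03 to 10.3, from 13.06 to 13.85 and from 14.39 to 14.51. HSPC arrays were not alike in this respect. On the largest axis of variation, with 76% of the variance, EC lay at -63.59 to -60.98 and HC at 54.42 to 60.18, while HSPC replicate 1 lay at -13.1, replicate 3 at 6.31 and replicate 2 at 21.27. The summed level of 10 macrophage markers, all of which were called higher in HSPC than in EC, followed the same order, at 12.31, 13 and 13.62 for replicates 1, 3 and 2, against 8.32 to 8.84 in EC and 14.22 to 14.34 in HC. The macrophage marker level of HSPC lay above that of every EC array, and its part in the differences given here was not tested. Globin RNA was high in every population (Hba-x 11.73 in EC, 11.71 in HSPC and 11.85 in HC), while the erythroid factor Klf1 lay at 4.82 to 5.05 in group means. Of 8 erythroid markers, 1 was called, Epor, higher in HC than in EC (0.76, limma adjusted p = 0.000302, background 14.8%). Epor was lower in HSPC than in HC (-0.62, adjusted p = 0.00317, background 7.61%). The summed erythroid level varied between arrays of a group, from 12.27 to 13.97 in EC. As these are bulk samples, fewer cells of a type and less RNA per cell cannot be told apart.

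**Figure D1:**
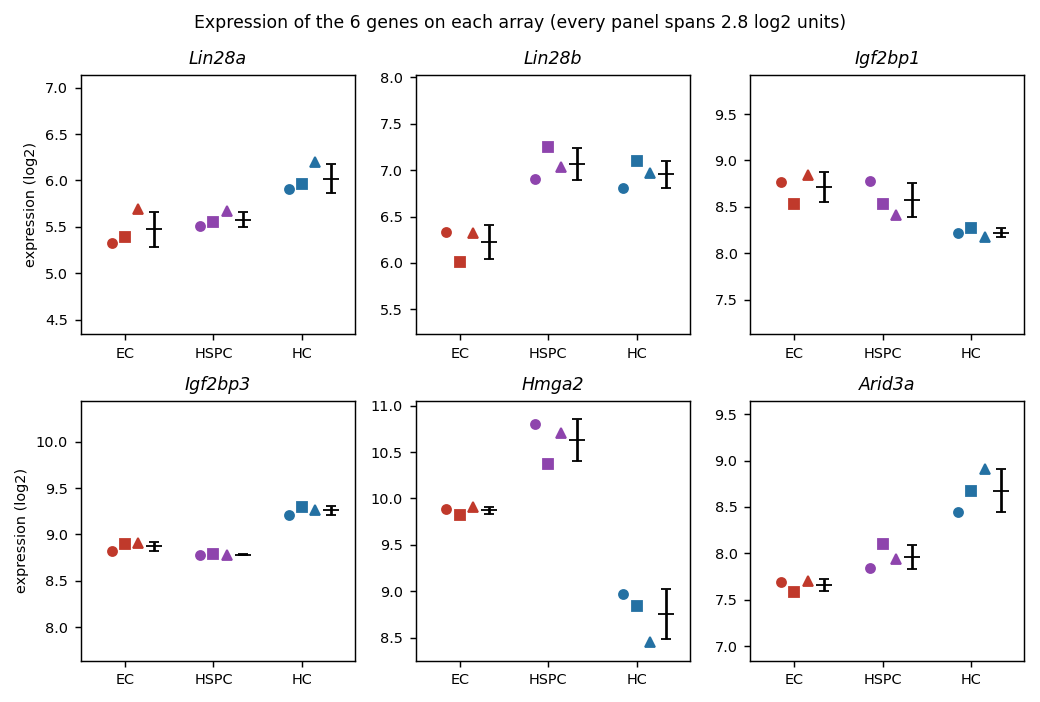
Expression (log2, vertical axis) of each gene on each of the 9 arrays, with circles, squares and triangles for replicates 1, 2 and 3, and the mean and SD of the 3 arrays beside them in black. Hmga2 stood highest in HSPC and lowest in HC, Lin28b stood lowest in EC, and Lin28a, Igf2bp3 and Arid3a stood highest in HC.

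All 6 genes were expressed above the background level of 4.69 on every array, a yardstick set by odorant and pheromone receptor genes (Olfr and Vmn symbols), of whose values 95% lie under it. All 6 differed between HC and EC, where 27.4% of all genes did: Lin28a, Lin28b, Igf2bp3 and Arid3a were higher in HC (background 14.8%), and Igf2bp1 and Hmga2 were lower (background 12.6%). Against EC, HSPC had 2 of the 6 called, Lin28b and Hmga2, both higher (background 16.5% in either direction, 8.55% higher and 7.94% lower). Against HC, HSPC had 4 of the 6 called, Hmga2 higher and Lin28a, Igf2bp3 and Arid3a lower (background 14.6% in either direction, 7.01% higher and 7.61% lower). A call means a limma adjusted p under 0.05, with the adjustment over all 20405 genes. The median difference over the 6 genes was 0.21 between HSPC and EC, -0.17 between HSPC and HC and 0.47 between HC and EC, beside 0.01, -0.03 and 0.05 (to 2 decimals) over all genes, and a single median describes the group poorly because its members went both ways. The arrays of the compared populations did not overlap for 4 of 6 genes between HSPC and EC (28.2% of all genes), 5 of 6 between HSPC and HC (29.6%) and 6 of 6 between HC and EC (39.2%).

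**Figure D2:**
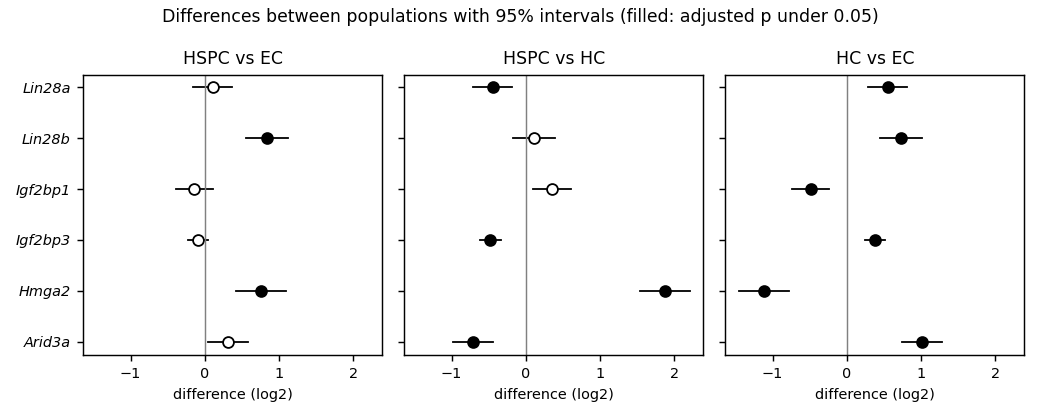
Difference between populations (log2, horizontal axis) for each gene with its 95% interval from the fit of all 9 arrays; filled points have an adjusted p under 0.05. All 6 genes are filled for HC vs EC, 2 for HSPC vs EC and 4 for HSPC vs HC, and Hmga2 between HSPC and HC is the largest at 1.87.

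Among the let-7 blockers, Lin28b separated EC from both CD45+ populations. Lin28b, the paralog known for its role in fetal blood, stood at 6.34, 6.01 and 6.32 in EC replicates 1 to 3, at 6.91, 7.25 and 7.04 in HSPC and at 6.80, 7.10 and 6.96 in HC. Every CD45+ array lay above every EC array, and the HSPC and HC arrays overlapped. Lin28b was 1.79-fold higher in HSPC than in EC (0.84 ± 0.13 SE, adjusted p = 0.00185) and 1.66-fold higher in HC than in EC (0.73 ± 0.13 SE, adjusted p = 0.00198). Between HSPC and HC the difference was 0.11 with a 95% interval of -0.18 to 0.39 (adjusted p = 0.647), which leaves room for a difference in either direction.

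Lin28a, the paralog best known from pluripotent and germ cells, followed another order. It stood at 5.33, 5.39 and 5.69 in EC, at 5.51, 5.55 and 5.67 in HSPC and at 5.91, 5.96 and 6.20 in HC. The EC and HSPC arrays overlapped, and all HC arrays lay above both. The difference between HC and EC was 0.55 ± 0.12 SE (1.46-fold, adjusted p = 0.00639) and that between HSPC and HC -0.44 ± 0.12 SE (adjusted p = 0.0344), whereas HSPC and EC differed by 0.11 (95% interval -0.16 to 0.37, adjusted p = 0.678). The call against HC was lost when any of 5 arrays was left out, with an adjusted p of 0.106, 0.0775 and 0.0553 without HSPC replicate 1, 2 or 3 and of 0.0674 and 0.107 without HC replicate 2 or 3. Lin28a rose from replicate 1 to replicate 3 in every population. With a fixed replicate block in the limma fit, the adjusted p of HSPC against HC was 0.00806, though pairing by replicate number is not stated. Of 12 markers of primordial germ cells, which colonise the gonad of this region and carry Lin28a, 7 lay at or under background in all 3 populations, Pou5f1 at 3.63 to 3.73, Ddx4 at 3.26 to 3.49 and Dazl at 2.86 to 2.95. Their summed level overlapped between populations (EC 8.35 to 8.5, HSPC 8.27 to 8.42, HC 8.2 to 8.43). Sall4 was the 1 marker of that list with a call, lower in HC than in EC (-0.93, adjusted p = 0.00819) and higher in HSPC than in HC by 0.73 (adjusted p = 0.0463), an order opposite to that of Lin28a. Dppa3 of the same list had group means in the order of Lin28a, with an EC mean of 4.36, an HSPC mean of 4.66 and an HC mean of 4.91, and the HC mean alone was above background. Its difference of 0.55 between HC and EC did not pass (adjusted p = 0.19). The part of germ cells in the Lin28a differences was not tested.

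The unequal change of the Lin28 paralogs was examined within arrays. The difference Lin28b minus Lin28a rose from 0.75 ± 0.22 (SD, n = 3) in EC to 1.49 ± 0.18 in HSPC and was 0.93 ± 0.19 in HC, with no overlap between HSPC and either other group. An exact two-sided permutation test of 3 arrays against 3 gave p = 0.1 for both contrasts of HSPC, the smallest it can give, and 0.15 after adjustment over the 6 paralog tests. The contrast of HC with EC was 0.18 (exact permutation p = 0.3, 0.36 adjusted). None of these reached 0.05, which a permutation of 3 arrays against 3 cannot do, and no other test of the paralog differences was run.

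The Igf2bp genes were both called between HC and EC, in opposite directions. Their group means spanned 0.49 log2 units for Igf2bp1 and 0.48 for Igf2bp3, wider than in 74.1% and 73.4% of all genes. Igf2bp1, an RNA-binding protein of embryonic tissues, stood at 8.77, 8.53 and 8.85 in EC, at 8.77, 8.53 and 8.42 in HSPC and at 8.22, 8.28 and 8.17 in HC. The HC arrays lay below all others, and HSPC spanned most of the EC range. Igf2bp1 was lower in HC than in EC (-0.49 ± 0.11 SE, adjusted p = 0.00979), while the differences of HSPC from HC (0.35 ± 0.11 SE, adjusted p = 0.0734) and from EC (-0.14, 95% interval -0.39 to 0.11, adjusted p = 0.527) did not pass. With quantile normalization repeated over the named genes, the difference of HSPC from HC passed at 0.39 (adjusted p = 0.0483).

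Igf2bp3, which in human cells is known to protect Hmga2 and Lin28b transcripts from let-7, stood at 8.82, 8.90 and 8.91 in EC, at 8.78, 8.79 and 8.78 in HSPC and at 9.21, 9.30 and 9.27 in HC. All 3 HSPC arrays lay below every other array, but the step to EC was small (-0.09 ± 0.06 SE, adjusted p = 0.414). Igf2bp3 was 1.31-fold higher in HC than in EC (0.39 ± 0.06 SE, adjusted p = 0.00106), and HSPC stood below HC (-0.48 ± 0.06 SE, adjusted p = 0.00115). The difference Igf2bp1 minus Igf2bp3 within arrays was -0.16 ± 0.18 (SD, n = 3) in EC, -0.21 ± 0.19 in HSPC and -1.03 ± 0.05 in HC. HC lay apart from both other groups without overlap, again at the smallest exact permutation p of 0.1 (0.15 adjusted), and HSPC and EC gave p = 1.

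Hmga2 had the widest spread of group means of the 6 genes, at 1.87 log2 units, wider than in 95% of all genes. It stood at 9.88, 9.83 and 9.90 in EC, at 10.80, 10.37 and 10.71 in HSPC and at 8.97, 8.84 and 8.45 in HC. The groups did not overlap anywhere, with HSPC on top, EC between and HC at the bottom. Hmga2 was 1.69-fold higher in HSPC than in EC (0.75 ± 0.15 SE, adjusted p = 0.00773), 3.66-fold higher in HSPC than in HC (1.87 ± 0.15 SE, adjusted p = 0.000137) and 2.17-fold lower in HC than in EC (-1.12 ± 0.15 SE, adjusted p = 0.000423). Of the 6 genes it was the 1 called higher in HSPC than in both other populations, a pattern that 1.27% of all genes had. HSPC replicate 2, the array nearest to HC on the largest axis, had the lowest Hmga2 of the HSPC arrays and replicate 1, the nearest to EC, the highest. Without replicate 2 or any other single array, Hmga2 stayed called in all 3 comparisons.

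Arid3a ran the other way, from EC through HSPC up to HC. It stood at 7.69, 7.58 and 7.70 in EC, at 7.85, 8.10 and 7.94 in HSPC and at 8.44, 8.68 and 8.90 in HC, with no overlap between any groups. Arid3a was 2.03-fold higher in HC than in EC (1.02 ± 0.12 SE, adjusted p = 0.00019), and HSPC stood below HC (-0.71 ± 0.12 SE, adjusted p = 0.00462). Its difference between HSPC and EC was 0.31 ± 0.12 SE, and all HSPC arrays lay above all EC arrays. That difference was not called after adjustment (limma adjusted p = 0.131, unadjusted p = 0.03). HSPC replicate 2 held the highest Arid3a and the highest Lin28b of the HSPC arrays.

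The contrast of HSPC with the midpoint of EC and HC gives how far a gene stood from the mean of the outer populations on the log2 scale. A mixture of cells adds on the linear scale and in any proportion, so a call here does not tell a mixture from another state. Markers of the sorted populations were called above the midpoint too, 5 of 10 endothelial, 8 of 10 leukocyte and 6 of 10 macrophage markers, and 0 of them below it by limma (0 at an unadjusted p under 0.05). Hmga2 lay 1.31 ± 0.13 SE above the midpoint (adjusted p = 0.000623), rank 151 of 20405 genes by size. Lin28b lay 0.47 ± 0.11 SE above it (adjusted p = 0.0354) and Igf2bp3 at -0.28 ± 0.05 SE (adjusted p = 0.0139). These were 3 of 6 genes, beside 6.56% of all genes (3.79% above the midpoint and 2.77% below). Lin28b lost its call without most single arrays: its adjusted p was 0.118 without HSPC replicate 2, 0.102 without HSPC replicate 3, between 0.0521 and 0.0549 without any 1 of the EC arrays and 0.0719 and 0.0727 without HC replicate 1 or 3. Igf2bp3 lost its call without HSPC replicate 3 (adjusted p = 0.0548). Lin28a (-0.17), Igf2bp1 (0.10) and Arid3a (-0.20) did not pass.

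**Figure D3:**
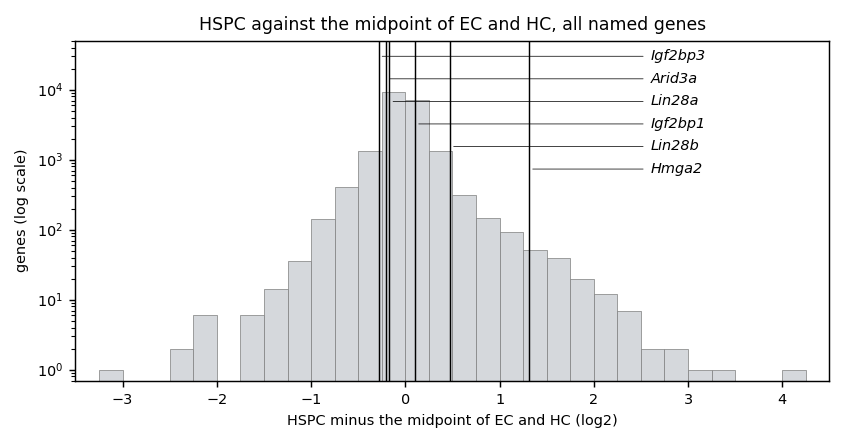
Number of named genes (vertical axis, log scale) by the difference of HSPC from the midpoint of EC and HC (log2, horizontal axis), with vertical lines at the 6 genes. Hmga2 at 1.31 lies in the upper tail, Lin28b at 0.47 on its shoulder, and the other 4 genes lie within -0.28 and 0.10.

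Promoters are shown for Lin28b and Hmga2, both higher in HSPC than in EC, to set the sequences of these genes side by side. RefSeq (GRCm38.p6) gave a window of 250 bases before to 50 after a start for 4 of the 6 genes, Lin28a, Lin28b, Igf2bp3 and Hmga2. The Lin28b window lies inside the annotated gene (chr10:45376617-45486314), so it belongs to an inner start. No window at the outer 5′ end of Lin28b was searched. The Hmga2 window covers the outer end of its gene, at 120476469. A set of 4 motifs was searched on both strands. The E-box bound by Myc family proteins was searched as CACGTG. The motif of GATA factors was searched as AGATAA. The motif of Runx factors was searched as TGTGGT. The motif of Ets factors was searched as CCGGAA. Capitals mark the matches, and none overlapped another.
Lin28b, chr10:45470152-45470451, minus strand: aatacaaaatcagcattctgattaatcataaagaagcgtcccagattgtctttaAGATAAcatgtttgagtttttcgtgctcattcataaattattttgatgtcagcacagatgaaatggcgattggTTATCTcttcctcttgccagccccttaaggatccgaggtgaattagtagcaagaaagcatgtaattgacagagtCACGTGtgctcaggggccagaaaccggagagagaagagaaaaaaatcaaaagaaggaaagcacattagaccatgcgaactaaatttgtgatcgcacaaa
Hmga2, chr10:120476420-120476719, minus strand: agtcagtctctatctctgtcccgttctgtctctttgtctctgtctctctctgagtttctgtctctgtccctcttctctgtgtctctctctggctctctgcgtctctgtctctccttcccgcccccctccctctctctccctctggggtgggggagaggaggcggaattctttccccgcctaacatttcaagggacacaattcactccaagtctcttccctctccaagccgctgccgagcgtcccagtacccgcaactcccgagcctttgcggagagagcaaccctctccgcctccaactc
The Lin28b window held 1 E-box and 2 GATA matches, and the Hmga2 window none of the 4 motifs. Among all 32851 promoter windows, 7.15% held the E-box, 11.2% the GATA motif, 16.8% the Runx motif and 14.9% the Ets motif. The Igf2bp3 window held 2 E-boxes, the Lin28a window none of the motifs, and neither the Runx nor the Ets motif was found in any of the 4 windows. The windows also differed in composition, with 39.0% G and C in that of the inner Lin28b start, lower than in most windows (8.38% were lower still). The Hmga2 window held 57.7% and is rich in runs of C and T. A match is a run of letters and says nothing of binding.

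**Figure D4:**
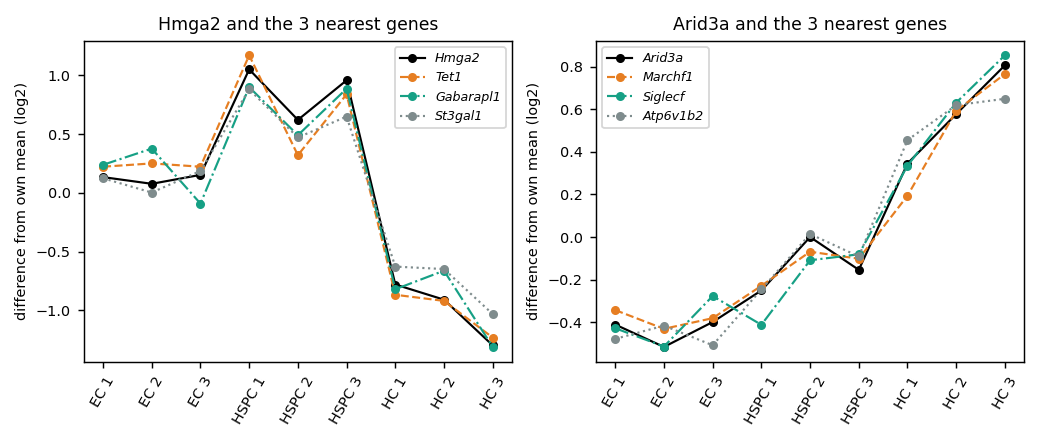
Difference of each gene from its own mean over the 9 arrays (log2, vertical axis) for Hmga2 and Arid3a and the 3 genes nearest to each. The Hmga2 group peaks in HSPC and is lowest in HC, and the Arid3a group climbs from EC to HC.

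Hmga2 and Arid3a spanned at least 1 log2 unit between group means, and the genes nearest to them were sought by the root mean square difference over the 9 arrays after centring each gene. Nearest to Hmga2 was Tet1, an enzyme that oxidises methylated cytosine in DNA, at 0.139. Tet1 stood at 6.86, 6.89 and 6.86 in EC, at 7.81, 6.96 and 7.48 in HSPC and at 5.77, 5.72 and 5.41 in HC. Its HSPC replicate 2 was the lowest of the group, as for Hmga2, a likeness that the choice by nearness over the same arrays favours. Tet1 was higher in HSPC than in HC (1.78 ± 0.19 SE, adjusted p = 0.000588), with a difference of 0.54 from EC that did not pass (adjusted p = 0.0969). Next came Gabarapl1, an autophagy protein (0.173), and St3gal1, a sialyltransferase (0.187). Nearest to Arid3a were the ubiquitin ligase gene Marchf1 (0.071), the eosinophil and macrophage lectin Siglecf (0.084) and the proton pump subunit Atp6v1b2 (0.088).

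Around these genes, the let-7 genes themselves showed no call. Of 11 measured genes of the family, 8 lay at or under background in every population, and 0 were called by limma in any of the 3 comparisons or against the midpoint, nor did any have an unadjusted p under 0.05 there (0 of 11). Mirlet7b, above background in every population, stood at 5.33, 5.48 and 5.92 in EC, at 5.75, 5.90 and 5.70 in HSPC and at 5.92, 5.75 and 5.94 in HC, with overlapping groups. The median difference of the family was 0.03 between HSPC and EC and -0.06 between HSPC and HC. Whether these probe sets read the primary transcript or shorter forms is not stated in the sources used here, and mature let-7 was not measured on its own.

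Genes that make microRNAs or degrade let-7 precursors were in part lower in HC. Of 17 measured, 6 were called lower in HC than in EC and 0 higher, and 5 were called higher in HSPC than in HC and 0 lower (at an unadjusted p under 0.05, 1 higher in HC than in EC and 1 lower in HSPC than in HC), with a median difference of 0.21 between HSPC and HC beside -0.03 over all genes. Over all genes, 12.6% were called lower in HC than in EC and 7.01% higher in HSPC than in HC. Tut4, the uridylyl transferase that Lin28a recruits to the let-7 precursor, stood at 8.78, 8.70 and 8.77 in EC, at 8.84, 8.46 and 8.39 in HSPC and at 7.90, 8.01 and 7.91 in HC. Its HC arrays lay below all others (-0.81 ± 0.11 SE against EC, adjusted p = 0.000524, and 0.62 ± 0.11 for HSPC over HC, adjusted p = 0.00658). Dicer1, which cuts the precursor, differed by -0.64 between HC and EC (adjusted p = 0.000561) and by 0.45 between HSPC and HC (adjusted p = 0.00949), and Drosha, which cuts the primary transcript, by -0.57 and 0.52 (adjusted p = 0.0106 and 0.032). Against EC, HSPC had 1 call in the list (background 16.5% in either direction), Prkra, a partner of Dicer1, at -0.79 (adjusted p = 0.000994).

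Other known let-7 targets moved in both directions. Of 26 measured, 7 were called higher and 4 lower in HSPC than in EC, 7 higher and 2 lower in HSPC than in HC, and 8 higher and 10 lower in HC than in EC. Beside these counts, the shares over all genes were 8.55% higher and 7.94% lower, 7.01% and 7.61%, and 14.8% and 12.6%, in the same order. Mycn, a Myc family factor, shared the order of Hmga2: it stood at 7.30, 7.29 and 7.36 in EC, at 8.63, 8.25 and 8.27 in HSPC and at 6.24, 6.14 and 5.80 in HC, without overlap. Mycn was higher in HSPC than in EC (1.07 ± 0.14 SE, adjusted p = 0.00082) and than in HC (2.32 ± 0.14 SE, adjusted p = 3.63e-05). Plagl2 and Arid3b were higher in HSPC than in EC by 0.80 and 0.58 (adjusted p = 0.000356 and 0.000742), and their means were highest in HC, from which HSPC differed by -0.20 and -0.10 (adjusted p = 0.178 and 0.454). Cdk6 (1.85), the creatine synthesis gene Gatm (1.76), the imprinted gene Peg10 (-1.60) and the cyclin Ccnd1 (-1.08) had the largest called differences of HSPC from EC. Trim71, a let-7 target of the early embryo, was called lower in HC than in EC (-0.54, adjusted p = 0.00437).

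Transcripts known to be carried by Igf2bp proteins did not share 1 direction. Of 15 measured, 4 were called higher and 2 lower in HSPC than in EC, 3 higher and 2 lower in HSPC than in HC, and 5 higher and 7 lower in HC than in EC. The shares over all genes are those given for the let-7 targets. Igf2, the fetal growth factor, stood at 12.14, 11.97 and 12.10 in EC, at 12.00, 11.54 and 11.79 in HSPC and at 9.67, 9.84 and 8.44 in HC. It was thus lower in HC than in EC (-2.75 ± 0.32 SE, adjusted p = 0.000181) and higher in HSPC than in HC (2.46 ± 0.32 SE, adjusted p = 0.00135), as was the noncoding H19 of the same locus (-2.59 and 2.32, adjusted p = 5.14e-05 and 0.000519). The adhesion receptor Cd44 ran with the CD45+ populations (2.71 for HSPC over EC, adjusted p = 8.84e-06), and Actb was listed at 13.24 in all 3 group means.

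Writers, erasers and readers of m6A, the RNA mark that Igf2bp proteins also read, had few calls. Of 18 measured, 0 were called by limma in HSPC against either population (at an unadjusted p under 0.05, 2 against EC and 7 against HC) and 1 in HC against EC, Ythdc2 (0.98, adjusted p = 0.00392). Over all genes, the shares called in either direction were 16.5% for HSPC against EC, 14.6% for HSPC against HC and 27.4% for HC against EC. In the ARID family, 14 genes were measured besides Arid3a: HSPC had 2 called higher than EC (Arid3b at 0.58 and Arid4a at 0.50) and 5 higher and 1 lower than HC. The histone demethylase Kdm5b differed most, at 1.39 ± 0.12 SE between HSPC and HC (adjusted p = 0.000165), and Arid5a, at -0.75, was the 1 call lower in HSPC as Arid3a was. Of 6 other high mobility group genes measured, 1 was called in HSPC against EC, Hmgn3, lower (-0.83, adjusted p = 0.0449), and 0 against HC by limma (1 at an unadjusted p under 0.05). Against EC, the counts of the ARID and high mobility group lists lay near the share over all genes.

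**Figure D5:**
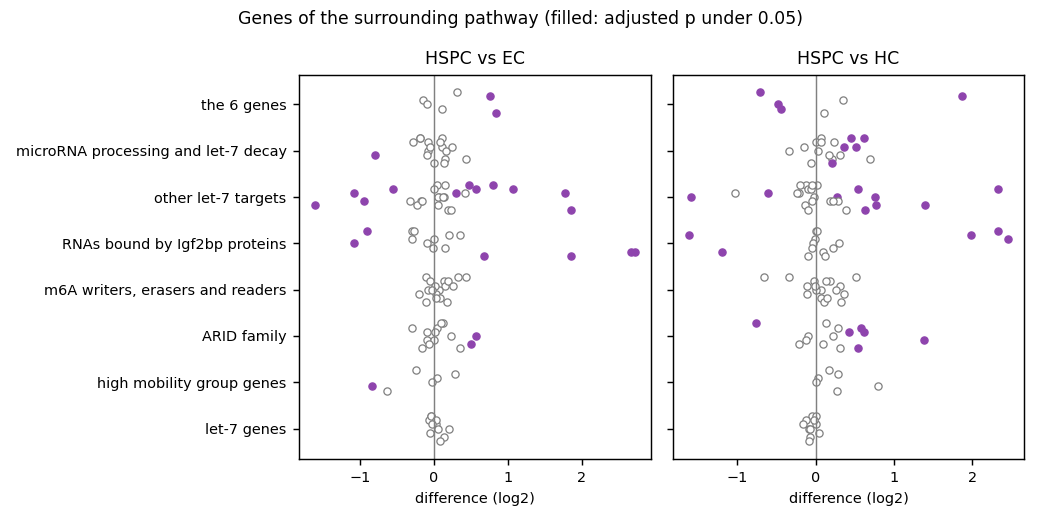
Difference of HSPC from EC and from HC (log2, horizontal axis) for each gene of the lists around the Lin28 and Igf2bp genes; each point is a gene, filled where its adjusted p is under 0.05. Calls fall on both sides of 0 among let-7 targets and Igf2bp-bound RNAs, on the right for microRNA processing against HC (5 of 17, beside 7.01% of all genes), and nowhere among the 11 let-7 genes.

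Among genes reported to mark fetal or adult mouse blood stem cells, 15 were measured, 10 called higher and 1 lower in HSPC than in HC, and 4 higher and 3 lower than in EC. In HC against EC, 2 were called higher and 10 lower. Over all genes the shares were 7.01% higher and 7.61% lower against HC, 8.55% and 7.94% against EC, and 14.8% and 12.6% for HC against EC. The list pools fetal and adult genes, so its directions have no single reading. It counts Igf2, H19 and Mycn of the lists above again. Bcl11a, a factor of lymphoid and globin control, stood above EC in HSPC by 1.90 ± 0.10 SE and above HC by 1.62 ± 0.10 SE (adjusted p = 5.45e-06 and 4.31e-05), while its HC and EC levels differed by 0.28 (adjusted p = 0.0616). Cebpa, a myeloid factor active in adult stem cells, ran as Arid3a did, at 1.14 above EC and -1.29 against HC. Of 18 replication and mitosis genes, 5 were called higher in HSPC than in EC (background 8.55%), among them Mcm7 (0.59) and Aurkb (0.58), and 8 higher in HC than in EC (background 14.8%), with medians of 0.11 and 0.23. A part of division in the Lin28b difference was not tested.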

How the data were processed

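Affymetrix arrays of 9 samples were grouped by the sort label in the sample titles. Values were deposited as log2 expression per probe set and array; the submitters' processing notes name RMA and Partek, with no versions, and neither the array description file nor the genome build is stated there. Per the labels' protocols, nanogram amounts of RNA were amplified with the Ovation Pico kit, and 2 array types are named without saying which sample went on which. Probe sequences were not used here, so signal shared between paralogs was not examined. RMA puts all arrays on a shared scale and compresses differences of dim genes. The authors' table held 21115 probe sets, of which 20405 had 1 platform symbol, and the 710 without a symbol were left out, so that 1 of the 7 genes of the set is not reported here.

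From these values, limma 3.58.1 in R 4.3.3 (lmFit, eBayes, two-sided) fitted 1 mean per population over all 9 arrays, with Benjamini-Hochberg adjustment over 20405 genes, 6 residual degrees of freedom and 2.75 prior ones, and the script was tested on simulated data. Array medians were 5.41 to 5.51, and the number of arrays limits the precision. Lists are described by counts and medians with no test. Of 234 list entries (members included) 211 were measured. Named genes were the 6 genes, at most the 4 largest called members of a list per comparison, genes of the sort, and the 3 nearest profiles; other genes were chosen for naming after their values were seen. The members and lists were chosen with earlier results of these data known. Alternatives were the compared groups alone, a replicate block, limma's trend and robust options, leaving out dim probe sets, median centring, repeated quantile normalization and leaving out each array.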

Additional observations from a re-analysis of the deposited data

How the results depend on the processing

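Over 402 alternative values of the 6 genes' differences, 386 kept their direction and their side of the threshold, 15 lost a call, 1 gained one and 0 changed direction with a call. The calls of Lin28b and Hmga2 in HSPC against EC, of Igf2bp3, Hmga2 and Arid3a against HC, and of all 6 genes in HC against EC held in every alternative run. Leaving out single arrays moved Lin28a in HSPC against HC between -0.50 and -0.35, the distance of Lin28b from the midpoint between 0.38 and 0.55, that of Igf2bp3 between -0.30 and -0.27, and the count of genes called against the midpoint between 1 and 3. The 1 was reached without HSPC replicate 3; the cause was not tested. The Lin28b distance from the midpoint also lost its call after median centring (0.43, adjusted p = 0.0521), and Igf2bp1 in HSPC against HC gained one under repeated quantile normalization (0.39). Residuals of same-numbered arrays correlated at -0.04 to 0.15, other pairs at -0.14 to 0.15. These ranges overlap and cannot settle whether samples with the same replicate number were paired. Summed gonad, mesonephros and mesenchyme markers stood highest in replicate 1 of every population (EC 10.03, HSPC 9.74, HC 9.92), as did endothelial markers. The sums of leukocyte, macrophage, erythroid and primordial germ cell markers did not peak at a shared replicate number. A shared source of same-numbered samples was not tested. With a fixed replicate block the Lin28b distance from the midpoint was 0.47 with an adjusted p of 0.0691, and no other member call changed with the fixed or the random block. Of calls over all genes between HSPC and EC, 51.8% were higher in HSPC, against 41.3% after median centring.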
